A study of Mus musculus with 18 samples.

Results

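Persistent Foxp3 expressors were compared with CD44hi effector T cells (Teff), which is a comparison of activated regulatory with activated conventional CD4+ T cells of the same mice. The persistent side was made of the Pers1 and Pers2 populations, with 3 libraries each, and the conventional side of 3 Teff libraries, so that 9 of the 18 libraries of the series entered the contrast. Of the 15402 genes in the deposited table, the 13190 whose mean over all 18 libraries reached a log2 value of 3 were tested.

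All groups came from female mice labelled C57/BL6 Foxp3Timer Foxp3-IRES-GFP, so the Timer transgene and the GFP allele were carried by the Teff donors too. Oxazolone (3%), a contact sensitiser, had been put on the abdominal skin of every mouse, and CD4+ T cells were sorted on day 5 from the draining inguinal and axillary lymph nodes (dLN), pooled over 3 mice for a replicate. Teff cells were labelled CD44hiGFP-Foxp3Timer-, that is, negative for both reporters. Pers1 cells (GFP+, labelled de novo Foxp3 expressers) and Pers2 cells (GFP+, labelled maturing Foxp3 expressers) were gated by position in the plane of Timer-Blue and Timer-Red fluorescence. The remaining libraries were from naive CD44lo cells (Tnaive) and from the PAt and Arrested Foxp3 expressors, whose Timer-Blue was low or negative. No age was given in the labels. Timer is a fluorescent protein under Foxp3 regulatory sequences that matures from a blue into a red form, so the gates report how recently and for how long Foxp3 was transcribed and not the level of Foxp3 protein.

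Foxp3 is the transcription factor that defines regulatory T cells (Treg), which restrain conventional T cells through inhibitory receptors, uptake of IL-2 and the release of suppressive molecules. Activated Treg lose part of the naive T-cell programme, acquire receptors for inflamed tissue and divide. Activated conventional CD4+ T cells instead make helper cytokines and CD40 ligand, and some of them enter the follicular helper programme that serves B cells.

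The values in the deposited table were log2 values of normalised counts, with the form of a regularised log transform, in which genes with few reads have their fold changes shrunk. The depth of the libraries is therefore unknown, and the precision rested on the spread between replicates, with a median SD per gene of 0.075 in Pers1, 0.0883 in Pers2 and 0.0931 in Teff. Differences were tested with limma in a single model of the 6 populations over all 18 libraries. A gene was called at a Benjamini-Hochberg adjusted p under 0.05 over the 13190 genes together with an absolute log2 fold change over 1, and fold changes are given throughout as the mean of Pers1 and Pers2 minus Teff. The labels do not say which mice stand behind a replicate number, and the main model held no term for it. Its p-values measure the spread between these libraries, including any variation that same-numbered libraries share.

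The sort was checked on the gene behind it and on T-cell markers. Foxp3 (chrX:7573644-7595245 on GRCm38, which is mm10) had log2 values from 14.56 to 14.85 with a median of 14.75 in the 6 persistent libraries. The Teff libraries had 10.38, 10.59 and 10.64. The groups stood far apart (log2 fold change 4.18, standard error 0.06, adjusted p = 7.8e-22), but since the cells were sorted on reporters of Foxp3 this is a check of the gates and not a finding. Foxp3 values were not near the floor in cells sorted as Timer-negative, with a mean of 10.54 in Teff and 11.34 in Tnaive cells. Foxp3 overlaps Ccdc22 and Ppp1r3f on the opposite strand, and it was not given in the sources used here whether reads were counted by strand. The same doubt touches Gpr15, Il1r2, Cxcr5, Zeb2, Gata3, Ccr9, Cx3cr1, Il17rb, Tnfrsf9, Cd160, Themis, Itga4 and Ciita, which also overlap a gene of the other strand. Gata3, Cx3cr1 and Cd74 overlap other genes on their own strand, and counting by strand would not separate those reads. Cd44, on which Teff were gated, was at 13.05, 13.04 and 13.05 in Teff and from 12.79 to 13.08 in the persistent libraries (log2 fold change -0.12, adjusted p = 0.0855), with overlap. None of the 6 tested markers of CD4 T cells was called, and their summed level ran from 1.37e+05 to 1.38e+05 in Teff and from 1.24e+05 to 1.29e+05 in the persistent libraries (sums of linear values over the list).

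The Teff libraries also held RNA of genes that mark cells other than CD4 T cells. Plasmacytoid dendritic cell markers summed to between 1.06e+04 and 1.39e+04 in Teff against 5.28e+03 to 6.49e+03 in the persistent libraries, and 6 of the 8 were called lower in the persistent cells. The same held for 4 of 7 markers of conventional dendritic cells (1.31e+03 to 1.58e+03 in Teff against 134 to 171), 4 of 6 of macrophages or monocytes (1.62e+03 to 2.05e+03 against 326 to 569) and 8 of 10 of B cells (3.99e+03 to 6.47e+03 against 1.9e+03 to 2.34e+03). It also held for 4 of 5 markers of NK cells (723 to 817 against 180 to 234) and for both markers of CD8 T cells (2.92e+03 to 4.09e+03 against 803 to 1.16e+03). Of plasma cells 2 of 4 and of gamma delta T cells 1 of 2 tested markers were lower, while the only marker tested of red blood cells was not called. In the list for stroma or epithelium 1 of 4 was higher, Epcam, with a log2 fold change of 2.06, although the sum of that list was lower in the persistent libraries (4.24e+03 to 5.02e+03 against 6.96e+03 to 7.44e+03). Within Teff the lists did not move together, since replicate 3 was lowest for the plasmacytoid markers (1.06e+04) and replicate 1 for the B cell markers (3.99e+03). In all, 30 of the genes called lower and 1 of those called higher stood in one of these marker lists. What part such cells had in the genes that were lower in persistent cells was not tested, and in bulk libraries fewer cells of a type and less RNA per cell cannot be told apart.

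In persistent expressors 565 genes were higher than in Teff, which is 4.28% of the genes tested, and 531 were lower, which is 4.03%. The 6 persistent libraries all lay above the 3 Teff libraries for 3285 genes (24.9%) and all below for 3180 (24.1%), and this separation held for 564 of the 565 and for all 531 called genes. A log2 fold change beyond 2 was seen for 89 higher and 156 lower genes, beyond 4 for 10 and 17, and beyond 5 for 4 and 5. The median over all genes was -0.0025, in values that the authors had normalised, and -0.0632 once libraries were shifted to the same median. When limma tested the fold change against 1 and not against 0, 354 genes were higher and 363 lower, and of the called genes named here Csf1, Irf8, Cx3cr1, Tnfrsf21, Cd160, Dusp5, Jun, Fosb, Cdkn2c, Cst7, Klrc1, Itga4, Idi1, Mvd, Oasl2 and Ifi44 lost their call. The counts in gene lists can be read against the shares of all tested genes, 4.28% higher and 4.03% lower. With libraries compared by their Euclidean distance over the tested genes, Pers1 stood 72.6 and Pers2 79.7 from Teff on average. Pers1 and Pers2 stood 27.2 from each other, and replicates of a population between 18.2 and 24.1. The distance to Teff was not particular to persistent cells, since PAt stood 74, Arrested 69.5 and Tnaive 93.3 from Teff.

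**Figure D1:**
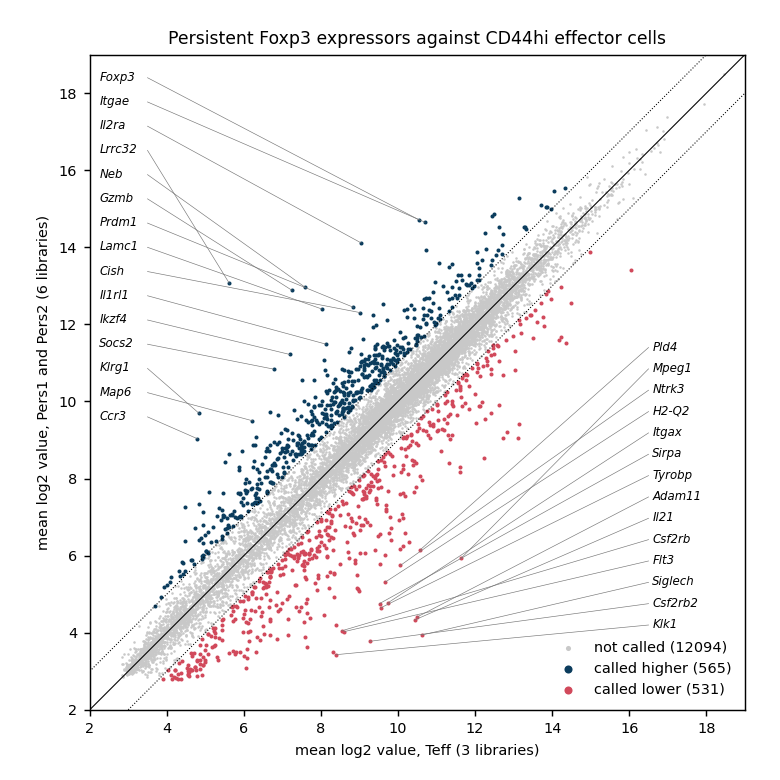
Mean log2 value of each of the 13190 tested genes in the 3 Teff libraries (horizontal axis) and in the 6 Pers1 and Pers2 libraries (vertical axis), with the 565 genes called higher in dark blue, the 531 called lower in red, the line of equality and dotted lines at a log2 fold change of 1 either way. The 15 highest and most of the 15 lowest named genes are labelled, from Lrrc32 at 7.45 to Siglech at -6.68.

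The 15 protein-coding genes of largest increase ran from a log2 fold change of 3.28 to 7.45. Of these 15 genes, 8 had all 6 persistent libraries above all 12 other libraries of the series, as had 419 of the 565 higher genes. This separation was counted among called genes only, so its share over all tested genes is not known. In 14 of the 15 genes the PAt and Arrested libraries also lay above all Teff libraries. In 7 the mean of PAt and Arrested was within 1 of the persistent mean. Over all 565 higher genes, that mean lay on the persistent side of the midpoint between persistent cells and Teff for 178 (31.5%). The largest increase was in Lrrc32 (chr7:98489283-98502181), which encodes GARP, the protein that holds latent TGF-beta on the Treg surface. Lrrc32 had 12.94, 12.70 and 12.62 in Pers1, 13.46, 13.49 and 13.22 in Pers2, and 5.58, 5.70 and 5.58 in Teff. Its Teff level was that of Tnaive (mean 5.57), and the difference was 7.45 (standard error 0.10, adjusted p = 5.4e-22), a 175-fold ratio. PAt and Arrested cells had Lrrc32 means of 13.91 and 13.39, so its high level was not particular to persistent cells.

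The Treg identity genes had the largest share of higher genes of any immune list. Of its 22 genes, all tested, 18 rose and none fell, with a median log2 fold change of 2.15 against -0.0025 over all genes and 81.8% called higher against 4.28%. Il2ra (chr2:11642807-11693193), the high-affinity subunit of the IL-2 receptor, ran from 13.72 to 14.54 with a median of 14.13 in the persistent libraries and was at 8.83, 9.0 and 9.28 in Teff (log2 fold change 5.08, standard error 0.08, adjusted p = 1.2e-20). Klrg1 (chr6:122270596-122282882), an inhibitory lectin-like receptor of highly differentiated T cells, ran from 9.08 to 10.34 with a median of 9.73 against 4.66, 4.89 and 4.97 in Teff, a difference of 4.85 (standard error 0.10, adjusted p = 1.4e-19). For both genes the persistent and Teff libraries did not overlap, which was a condition for entry among the 15 highest.

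Other members of that list that were among the 15 highest were Socs2, a feedback inhibitor of cytokine signalling (10.40 to 11.32 in persistent libraries, 6.62, 7.0 and 6.70 in Teff, log2 fold change 4.07), and Ikzf4, which encodes the Foxp3 partner Eos (10.78 to 11.64 against 7.14, 6.97 and 7.45, log2 fold change 4.03). Itgae (chr11:73090583-73147446), the integrin subunit known as CD103 that binds E-cadherin on epithelium, ran from 14.15 to 15.17 against 10.62, 10.72 and 10.76 in Teff (log2 fold change 3.95, standard error 0.07, adjusted p = 2.6e-20). Ikzf2, the gene of the Eos relative Helios, is a member chosen after its values were seen, and was higher by 2.36 (14.53 to 15.06 against 12.52, 12.39 and 12.43). The 4 members that were not called were Gpr15, a homing receptor (0.69), Cd83 (0.48), Nrp1, the neuropilin used to mark thymic Treg (0.41), and Izumo1r, the folate receptor 4 gene (0.19, adjusted p = 0.0501). Of these 4, the groups overlapped in Izumo1r only, with 13.76 to 14.43 in persistent libraries and 13.88, 13.94 and 13.76 in Teff.

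Genes of suppressive mediators rose in 14 of 22 tested cases, none fell, and the median log2 fold change was 1.33. Gzmb (chr14:56258838-56262260), the serine protease granzyme B, was at 6.93, 7.32 and 7.48 in Teff and ran from 12.41 to 13.52 with a median of 12.92 in the persistent libraries, a difference of 5.65 (standard error 0.15, adjusted p = 1.5e-17). Penk, which encodes the precursor of enkephalin peptides, ran from 8.81 to 10.69 against 6.36, 6.94 and 6.77 (log2 fold change 3.05), and Il1r2, the decoy receptor for IL-1, from 10.44 to 11.73 against 8.20, 8.13 and 7.92 (3.00). Il10, the gene of the inhibitory cytokine IL-10, ran from 8.50 to 9.41 with a median of 8.81 against 6.65, 6.30 and 5.92 (2.60, standard error 0.16, adjusted p = 9.6e-12). In none of these genes did the groups overlap, which was so for 564 of the 565 genes called higher. The 8 members without a call included key mediators: Tgfb1, the gene of TGF-beta itself, differed by 0.37, the perforin gene Prf1 by 0.09, Cd274 (PD-L1) by 0.06, the inhibitory receptor gene Lag3 by -0.43 and the granzyme A gene Gzma by -0.57, all short of the fold threshold. Itgb8, the integrin subunit that helps release TGF-beta from its latent form, was higher by 1.85 (7.40 to 8.29 against 5.60, 6.55 and 5.92).

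**Figure D2:**
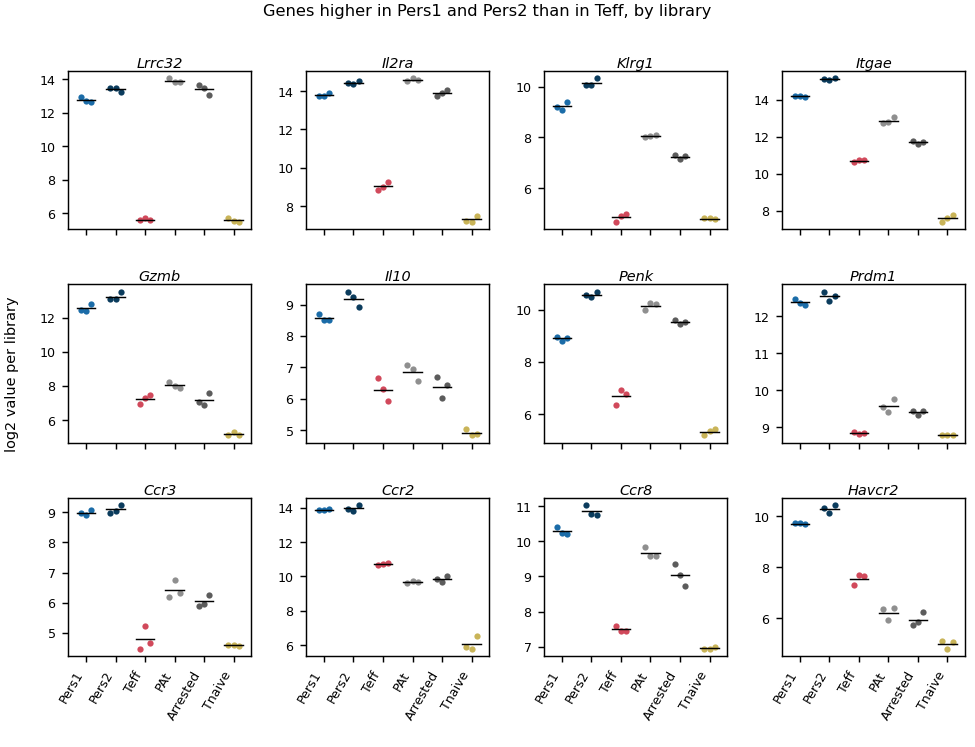
Log2 value per library of 12 genes that were higher in persistent expressors than in Teff, in each of the 6 populations of the series, with 3 libraries (points) and their mean (line) per population. Lrrc32 and Il2ra were also high in PAt and Arrested cells, whereas for Gzmb, Prdm1, Ccr2 and Havcr2 the 6 persistent libraries stood above all others.

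Homing receptors were called in both directions. Of 17 homing receptor genes tested, 6 rose and 3 fell, with a median of 0.69. The largest increase was in Ccr3 (chr9:124021972-124031689), the eotaxin receptor best known from eosinophils, which ran from 8.90 to 9.24 in persistent libraries and was at 4.47, 5.22 and 4.67 in Teff (log2 fold change 4.25, standard error 0.14, adjusted p = 6.6e-16). Ccr2, the receptor for monocyte chemoattractant proteins, ran from 13.80 to 14.16 with a median of 13.91 against 10.68, 10.73 and 10.77 (3.20, standard error 0.11, adjusted p = 1.6e-15). Ccr8, a receptor of skin and tissue Treg, ran from 10.22 to 11.03 against 7.60, 7.44 and 7.46 (3.07).

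In Ccr2 the persistent cells stood above every other population, since PAt had a mean of 9.67 and Arrested of 9.85. Cxcr3, the receptor of type 1 inflammation, differed by 0.91, which passed the p threshold (1.5e-07) but not that of the fold change. The 3 receptors that were lower were Cxcr5, which guides cells to follicles, Ccr9, which guides cells to the gut, and Cx3cr1, the fractalkine receptor. Ccr9 was at 9.95, 9.80 and 9.19 in Teff and from 5.71 to 6.39 in persistent libraries (-3.63). It is also a marker of plasmacytoid dendritic cells, and its Tnaive mean was 8.43. Cx3cr1 was lower by 1.04 only just. It lost its call with quantile normalisation (-0.92), without Pers2 replicate 2 (-1.0) or without Teff replicate 3 (-0.98).

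Of 30 cytokine receptor genes, 7 rose and 6 fell, with a median of 0.16. Besides Il2ra and Il1r2, the increases included Il1rl1, the IL-33 receptor ST2 of tissue Treg (11.06 to 12 against 8.10, 8.34 and 7.92, log2 fold change 3.37), and Tgfbr1, the signalling receptor for TGF-beta (11.51 to 12.30 against 10.65, 10.51 and 10.56, 1.35). Its co-receptor Tgfbr3 went the other way, from 7.76 to 8.72 in persistent libraries against 11.77, 11.55 and 11.52 in Teff (-3.44). For IL-1 the signalling receptor Il1r1 was lower (5.17 to 5.91 against 8.51, 8.08 and 8.41, -2.81) where the decoy Il1r2 was higher. Il17rb, a subunit of the IL-25 receptor, was lower by 1.79 on the log2 scale (9.13 to 9.34 against 11.15, 11.05 and 10.93). Of the 4 receptor genes named for TGF-beta and IL-1, Tgfbr1 and Il1r2 were thus higher and Tgfbr3 and Il1r1 lower. The largest fall in the list was in Csf2rb (-4.49), which is among the 15 lowest genes of the comparison.

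TNF receptor genes rose in 5 of 17 cases and fell in 2, with a median of 0.23. Tnfrsf1b, the gene of TNF receptor 2, ran from 14.60 to 15.14 with a median of 14.86 in persistent libraries and was at 12.44, 12.50 and 12.50 in Teff (log2 fold change 2.39, standard error 0.05, adjusted p = 5.5e-19). The costimulatory receptors Tnfrsf9 (4-1BB), Tnfrsf4 (OX40) and Tnfrsf18 (GITR) were higher by 2.90, 2.55 and 1.98. The lower ones were the decoy receptor Tnfrsf26 (10.04 to 10.57 against 11.58, 11.64 and 11.57, -1.25) and Tnfrsf21, death receptor 6 (-1.09). Tnfrsf21 lost its call with quantile normalisation (-0.96) or without Teff replicate 1 (-0.93).

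Among 20 checkpoint and costimulatory receptors 6 rose and 3 fell, with a median of 0.35. Havcr2, which encodes the inhibitory receptor TIM-3, ran from 9.68 to 10.44 with a median of 9.92 against 7.31, 7.69 and 7.66 in Teff (2.45, standard error 0.13, adjusted p = 1.4e-12). Ctla4, the inhibitory receptor that strips CD80 and CD86 from other cells, was higher by 2.13, Cd80, one of those ligands, by 1.57 (7.23 to 8.0 against 5.66, 6.32 and 6.20), and the inhibitory receptor gene Tigit by 1.5. The receptors that were lower were Cd244 (4.11 to 4.69 against 6.27, 6.14 and 6.12, -1.82), Btla, the ligand of HVEM (12.72 to 13.16 against 14.20, 14.24 and 14.30, -1.29), and Cd160 (-1.03). Cd160 lost its call without Pers1 replicate 3 (-0.99), without Pers2 replicate 2 (-0.98) or without Teff replicate 2 (-0.96). Pdcd1, the gene of PD-1, was at 11.31, 11.36 and 11.63 in Teff and from 10.38 to 10.54 in persistent libraries. Its difference of -0.97 fell just short of the threshold. It passed without Teff replicate 1 (-1.04) or 2 (-1.01), with libraries shifted to the same median (-1.04) and with quantile normalisation (-1.02).

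Of 19 tested genes of cytotoxic granules and killer receptors 3 rose and 4 fell, with a median of -0.30. Those that rose were Gzmb, Gzmc (7.11 to 7.87 against 5.95, 5.95 and 6.08, log2 fold change 1.5) and the cystatin F gene Cst7 (1.12). Gzmb and Gzmc are close copies in a gene cluster, and how reads were shared between them was not given in the sources used here. The 4 that fell were receptors of the NK complex: Klrk1, the gene of NKG2D (4.78 to 5.15 against 7.66, 7.71 and 7.55, -2.76), Klrd1, of CD94 (5.03 to 5.65 against 7.80, 8.16 and 7.82, -2.49), Klrb1c, of NK1.1 (-1.64), and Klrc1 (-1.14). Klrd1 and Klrb1c are themselves markers of NK cells, and without genes of the other-cell marker lists 2 fell. Those 2, Klrk1 and Klrc1, are receptors of the NK complex too, and the part of other cells in their values was not tested. The summed NK markers were 723 to 817 in Teff and 746 to 884 in Tnaive.

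Integrin and adhesion genes rose in 3 of 22 cases and fell in 3, with a median of 0.25. With Itgae and Itgb8, Itga2, a subunit of a collagen receptor, was higher (9.06 to 9.40 against 7.23, 7.03 and 7.51, 1.91). Itga4, the alpha4 subunit used on the way into inflamed tissue, was lower (10.94 to 11.87 against 12.55, 12.74 and 12.45, -1.12), as were Ly6c2, a gene of the Ly6C antigen (7.77 to 8.93 against 10.42, 10.57 and 10.26, -1.95), and Itgax, the CD11c gene of dendritic cells.

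Among factors that direct helper and effector differentiation, 5 of 24 rose and 5 fell, with a median of 0.12. Prdm1 (chr10:44437177-44528501) encodes Blimp-1, a transcriptional repressor that promotes late effector differentiation. Prdm1 ran from 12.29 to 12.66 with a median of 12.42 in persistent libraries. It was at 8.86, 8.82 and 8.85 in Teff, near the Tnaive mean of 8.79. The difference was 3.61 (standard error 0.07, adjusted p = 7.8e-20). Nfil3 was higher by 1.90 (10.48 to 11.26 against 9.26, 8.89 and 8.69), the aryl hydrocarbon receptor gene Ahr by 1.69 (11.32 to 11.97 against 9.99, 9.79 and 9.92) and Ikzf3, which encodes Aiolos, by 1.62 (14.28 to 14.42 against 12.62, 12.82 and 12.73).

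Vdr, the vitamin D receptor gene, was lower, with 6.12 to 6.99 against 9.76, 9.59 and 9.93 (log2 fold change -3.17, standard error 0.15, adjusted p = 1.4e-13). Zeb2 (-2.16), Eomes (-1.91) and Irf8 (-1.30) were lower too. Eomes and Irf8 also stand in the NK and plasmacytoid marker lists, without which 3 of the list fell. Eomes had a mean of 9.13 in Tnaive cells, above its mean of 7.88 in Teff. Factors that name helper lineages, Tbx21 and Gata3, were not called. Tbx21 (T-bet) differed by 0.03 (8.60 to 9.40 against 9.06, 8.90 and 8.99, adjusted p = 0.876) with a sign that turned under other scalings and without some libraries, and Gata3 by 0.27 (adjusted p = 0.00516), and in both the groups overlapped.

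Genes of cell division were higher in the persistent expressors. Of 36 DNA replication genes 31 rose (86.1%, median 1.32) and of 40 genes of mitosis, spindle and kinetochore 38 rose (95%, median 1.70), with none lower in either list. The replication genes of largest increase were Rrm2, the small subunit of ribonucleotide reductase (12.36 to 12.64 against 10.38, 10.23 and 10.41 in Teff, log2 fold change 2.18), Cdc6, which loads the MCM helicase (10.06 to 10.37 against 8.16, 7.93 and 8.27, 2.15), Mcm10 (1.98) and Uhrf1, which carries DNA methylation through replication (12.57 to 12.82 against 10.70, 10.68 and 10.82, 1.95). The mitotic genes were led by Aurkb, the kinase of the chromosomal passenger complex (10.59 to 11.04 against 8.52, 8.40 and 8.73, 2.28), its partner Birc5 (2.20), the checkpoint kinase gene Bub1 (2.15) and Cdk1, the kinase that starts mitosis (10.54 to 10.95 against 8.81, 8.94 and 8.59, 1.98). Pttg1, which encodes securin, differed by 0.08 (9.86 to 10.25 against 10.11, 9.91 and 9.81, adjusted p = 0.396).

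Against Teff, the median of the replication genes was 1.22 for Pers1 and 1.41 for Pers2, but PAt had -0.19, Arrested -0.31 and Tnaive cells -0.66. For the mitotic genes it was 1.61, 1.78, -0.75, -0.86 and -2.21 in the same order. All 36 and all 40 genes had a mean above that of Teff in Pers1 and in Pers2. These values share the Teff libraries and are a description. The Treg identity genes had another order, with medians of 2.03 and 2.30 for Pers1 and Pers2, 2.02 for PAt, 1.41 for Arrested and -1.78 for Tnaive cells.

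**Figure D3:**
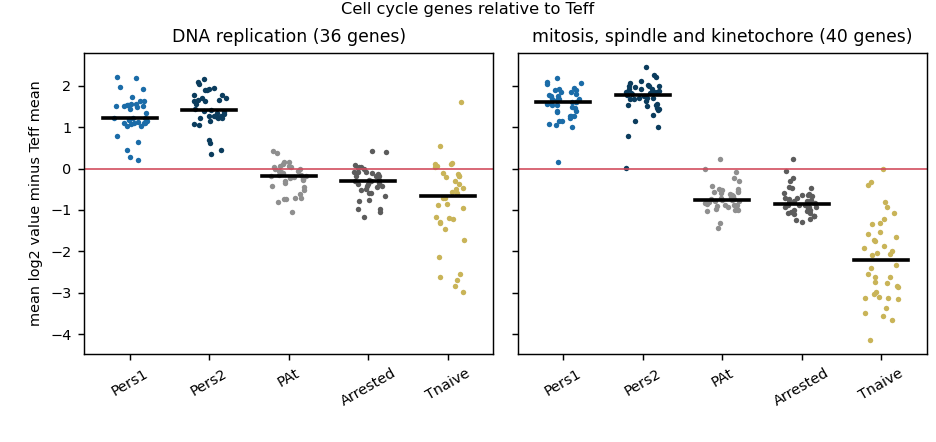
Mean log2 value of each gene in a population minus its mean in Teff, for 36 DNA replication genes (left) and 40 genes of mitosis, spindle and kinetochore (right), with the median as a bar and Teff as the line at 0. Medians were 1.22 and 1.41 in Pers1 and Pers2 for replication and 1.61 and 1.78 for mitosis, and lay below 0 in PAt, Arrested and Tnaive cells.

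The promoters of these lists were read for the short motifs through which cell cycle genes are commonly timed, the CHR (TTTGAA) of late cell cycle genes and an E2F site (TTCCCGC) of replication genes. Both strands of the 300 bases from 250 before to 50 after the transcription start were searched, in RefSeq promoters of GRCm38.p6, which matched 9938 of the 13190 tested genes. The CHR letters stood in 23 of 33 mitotic promoters (69.7%) against 1197 of all 9938 (12%), in 26.3% of the promoters of genes called higher and in 11.2% of those called lower. The E2F letters stood in 14 of 30 replication promoters (46.7%) against 833 of 9938 (8.38%), in 3.03% of the mitotic ones, in 14.3% of those called higher and in 3.56% of those called lower. CCAAT, the site of the factor NF-Y, whose matches can share end bases with those of the other motifs, stood in 78.8% of mitotic and 56.7% of replication promoters against 38.8% of all. Such matches describe letters in a window and do not show that a factor binds. Outside both lists, 23.2% of the promoters of the genes called higher held the CHR letters and 13% the E2F letters.

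To show the motifs in place, the 150 bases before the start are given for 2 mitotic and 2 replication genes. They were taken in order of fold change from genes whose RefSeq promoter held the motif within these bases. Not every gene or promoter was open to this choice, so genes of larger fold change may hold the motif too. Mki67, the gene of the division marker Ki-67, entered in this way and not by the rule for named genes (14.41 to 14.62 against 12.69, 12.59 and 12.59, log2 fold change 1.90). Sequences run 5′ to 3′ on the strand of the gene, with the motif in capitals. In Cdk1 (chr10:69352913-69353062, minus strand) and Mki67 (chr7:135716380-135716529, minus strand) the capitals are 2 CHR matches each, at 71 and 15 and at 116 and 98 bases before the start. In Cdc6 (chr11:98908001-98908150, plus strand) the E2F letters lie on the reverse strand 138 bases before the start, and in Uhrf1 (chr17:56303187-56303336, plus strand) on the forward strand at 48. All of these starts are those of RefSeq. In GENCODE the Cdc6 gene begins further upstream, at chr11:98907801, so its printed bases lie inside the gene there. The last printed bases of Cdk1 and Uhrf1 also lie inside their GENCODE genes.
Cdk1: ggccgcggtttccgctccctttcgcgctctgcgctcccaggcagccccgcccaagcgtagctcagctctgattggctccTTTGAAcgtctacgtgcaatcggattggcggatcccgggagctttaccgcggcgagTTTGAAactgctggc
Mki67: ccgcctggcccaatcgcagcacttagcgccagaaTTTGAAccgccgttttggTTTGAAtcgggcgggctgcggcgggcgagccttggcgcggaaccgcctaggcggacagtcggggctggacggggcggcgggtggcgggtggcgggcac
Cdc6: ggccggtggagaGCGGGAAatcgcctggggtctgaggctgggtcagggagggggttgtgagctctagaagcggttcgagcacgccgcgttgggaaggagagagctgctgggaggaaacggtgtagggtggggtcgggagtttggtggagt
Uhrf1: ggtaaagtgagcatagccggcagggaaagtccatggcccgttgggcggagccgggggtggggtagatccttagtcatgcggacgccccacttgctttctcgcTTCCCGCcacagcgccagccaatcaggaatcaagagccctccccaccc

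Of 22 regulators of the G1 phase 6 were higher (27.3%) and 1 lower, with a median of 0.75, and 19 had all persistent libraries above all Teff libraries, against 24.9% of all genes. The increases were led by the atypical E2F repressors E2f7 (9.05 to 9.38 against 6.77, 7.03 and 7.08, log2 fold change 2.22) and E2f8 (10.61 to 10.92 against 8.83, 8.51 and 8.87, 2.03), followed by Cdkn3 (1.61) and the CDK4 and CDK6 inhibitor gene Cdkn2c (1.18). The lower one was Ccnd1, which encodes cyclin D1, with 5.84 to 6.25 in persistent libraries against 9.17, 9.12 and 8.74 in Teff (-2.94, standard error 0.11, adjusted p = 7e-15). Its level in persistent cells was close to that in PAt, Arrested and Tnaive cells, whose means were 6.13, 6.29 and 6.19.

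On the conventional side, the helper cytokines and TNF ligands stood out. Of 21 tested genes 9 were lower in persistent expressors, 2 were higher and the median was -0.86. Il21 (chr3:37222759-37232636), the cytokine of follicular help, was at 10.43, 10.25 and 10.60 in Teff and from 3.84 to 4.80 with a median of 4.37 in persistent libraries (log2 fold change -6.10, standard error 0.14, adjusted p = 1.9e-18), a 68.4-fold ratio. The other populations were as low, with a mean of 4.33 for PAt, 4.68 for Arrested and 5.01 for Tnaive cells. Il4, the type 2 cytokine, was at 7.94, 8.47 and 8.64 in Teff and from 5.39 to 5.70 in persistent libraries (-2.79, standard error 0.12, adjusted p = 4.9e-14).

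Tnfsf8, which encodes CD30 ligand, was at 11.53, 11.60 and 11.67 in Teff and from 7.98 to 8.43 in persistent libraries (-3.31, standard error 0.09, adjusted p = 2.3e-17). Here PAt, Arrested and Tnaive cells had means of 10.74, 10.73 and 10.57, so that the persistent libraries were the lowest of the series. Cd40lg, the CD40 ligand that licenses B cells and dendritic cells, was at 12.32, 12.07 and 12.14 in Teff and from 9.74 to 10.21 in persistent libraries (-2.20, standard error 0.08, adjusted p = 1.8e-15), with a Tnaive mean of 12.07. Il2, whose gene product Treg take up but do not make, was chosen after its values were seen. It was at 4.75, 4.78 and 4.81 in Teff and from 3.22 to 3.38 in persistent libraries (-1.51). All of these values were low. Those of persistent cells lay near the filter of 3, as did the means of PAt, Arrested and Tnaive cells (3.38, 3.41 and 3.45). The ligands that were higher were Tnfsf10, which encodes TRAIL (11.15 to 11.50 against 9.90, 9.81 and 10.04, 1.35), and the macrophage growth factor Csf1 (11.19 to 11.48 against 10.15, 9.89 and 10.34, 1.24). Ifng differed by -0.30 (adjusted p = 0.0434, with overlap) and Tnf by -0.86 without a call. Il5, Il13, Il17a, Il17f, Il22 and Csf2 lay under the filter on low values and were not tested.

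The follicular helper programme was lower in 11 of 21 genes and higher in 1, with a median of -1.15. Bcl6, the repressor that defines follicular helper cells and opposes Blimp-1, was at 12.28, 12.19 and 12.30 in Teff and from 9.36 to 9.83 with a median of 9.48 in persistent libraries (log2 fold change -2.70, standard error 0.08, adjusted p = 3.8e-17). The Tnaive mean of Bcl6 was 10.34, above all persistent libraries. Cxcr5 was at 12.35, 12.75 and 12.78 in Teff and from 9.67 to 10.14 in persistent libraries (-2.73), and Tox2, a factor of the same programme, at 11.48, 11.12 and 11.39 and from 8.09 to 8.85 (-2.92). The gene that was higher was Icos, the costimulatory receptor shared by follicular cells and Treg (15.39 to 15.75 against 14.39, 14.21 and 14.36, 1.22), and Sh2d1a, the adaptor SAP, differed by -0.17. The summed B cell markers were also lower in persistent cells than in Teff, but ran from 4.21e+03 to 4.95e+03 in PAt and from 3.3e+03 to 4e+03 in Arrested cells, against 3.99e+03 to 6.47e+03 in Teff.

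**Figure D4:**
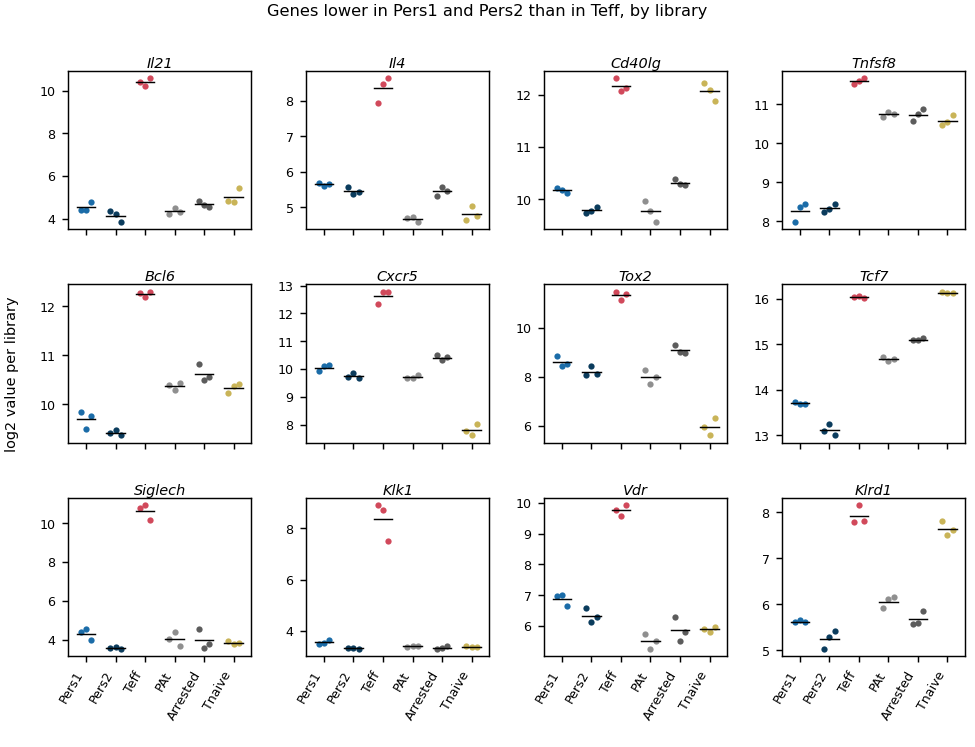
Log2 value per library of 12 genes that were lower in persistent expressors than in Teff, in each of the 6 populations, with 3 libraries (points) and their mean (line) per population. Il21 and Il4 were high in Teff alone, and Cd40lg, Tcf7 and Klrd1 were about as high in Tnaive as in Teff. Siglech, Klk1 and Klrd1 are markers of other cell types.

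Genes of quiescence and of naive or central memory cells were lower in 8 of 25 cases and higher in none, with a median of -0.33. Tcf7, which encodes TCF-1, the factor of stem-like and follicular helper T cells, was at 16.04, 16.06 and 16.02 in Teff and from 13.00 to 13.74 with a median of 13.46 in persistent libraries (log2 fold change -2.63, standard error 0.04, adjusted p = 1.2e-20). Teff thus kept the level of naive cells (mean 16.14), while PAt and Arrested cells lay between (14.68 and 15.11). Dapl1, a gene of little known function with high levels in naive T cells, was at 10.10, 10.11 and 9.96 and from 5.56 to 6.62 (-3.89, standard error 0.12, adjusted p = 8.6e-17). The cytoskeletal genes Actn1 (11.74 to 12.12 against 13.75, 13.82 and 13.76, -1.82) and Pdlim4 (5.38 to 7.24 against 8.27, 8.04 and 7.91, -1.80) followed. The factor Klf2, which keeps naive cells recirculating, differed by -0.31 (adjusted p = 0.0231), with overlap between groups.

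Against Teff, the median of this list was -0.36 for Pers1 and -0.35 for Pers2, while PAt had 0.34, Arrested 0.37 and Tnaive cells 0.95. For the follicular programme it was -1.02, -1.19, -1.29, -1.23 and -1.92 in that order. The quiescence genes thus had their lowest median in the persistent populations, and the follicular genes their highest in Teff.

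The T-cell receptor complex and its proximal signalling genes were lower in 1 of 28 cases (3.57%, against 4.03% of all genes) and higher in none, with a median of -0.36. All persistent libraries lay below all Teff libraries in 19 of the 28, against 24.1% of all genes. The called gene was Themis, a signalling regulator of developing and naive T cells (10.43 to 10.99 against 12.74, 12.69 and 12.77, log2 fold change -2.04). The coreceptor gene Cd4 ran from 14.68 to 14.77 in persistent libraries and was at 15.66, 15.70 and 15.66 in Teff (-0.94, adjusted p = 2.1e-15), short of the fold threshold. Early response and feedback genes had 2 of 31 higher (6.45%, against 4.28% of all genes), 3 lower (9.68%, against 4.03%) and a median of -0.06. Of the MAP kinase phosphatase genes, Dusp4 (11.04 to 11.59 against 9.09, 8.61 and 8.48, 2.55) and Dusp5 (1.32) were higher and Dusp6 (9.57 to 9.79 against 11.69, 11.53 and 11.38, -1.88) was lower. The AP-1 genes Jun (-1.19) and Fosb (-1.14) were lower, though neither was called with the fold change tested against 1 (adjusted p = 1), and the receptor-responsive gene Nr4a1 differed by 0.54.

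**Figure D5:**
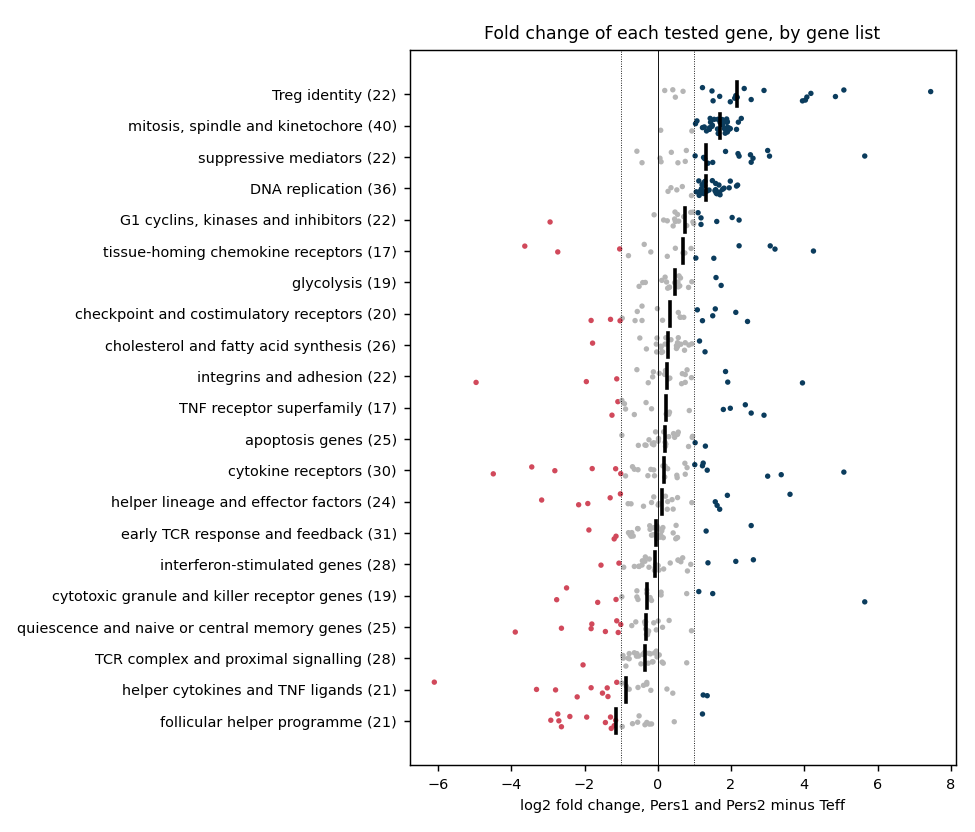
Log2 fold change of persistent expressors against Teff for every tested gene of 21 lists, with called genes in dark blue (higher) or red (lower), the median of each list as a bar and the number of tested genes in parentheses. Medians ran from 2.15 for Treg identity to -1.15 for the follicular helper programme.

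Glycolysis genes were higher in 2 of 19 cases (10.5%, against 4.28% of all genes), with a median of 0.46, and 15 had all persistent libraries above all Teff libraries, against 24.9% of all genes. The called ones were the lactate exporter gene Slc16a3 (1.73) and the glucose transporter gene Slc2a3 (12.27 to 12.51 against 10.79, 10.87 and 10.72, 1.59). In cholesterol and fatty acid synthesis 2 of 26 were higher (7.69%), Idi1 (1.29) and Mvd (1.14), and the desaturase gene Scd1 was lower (-1.78), with a median of 0.29. Neither Idi1 (adjusted p = 0.118) nor Mvd (adjusted p = 0.718) was called with the fold change tested against 1. Interferon-stimulated genes had 3 of 28 higher (10.7%) and 2 lower (7.14%) with a median of -0.07. All 3 were guanylate-binding proteins, Gbp3 (11.80 to 12.17 against 9.35, 9.31 and 9.36, 2.61), Gbp7 (2.13) and Gbp5 (1.37), which are close copies of one another and whose reads may have been shared, and the lower ones were Oasl2 (-1.55) and Ifi44 (-1.06). Neither Oasl2 (adjusted p = 0.191) nor Ifi44 was called with the fold change tested against 1. Ifi44 also lost its call with quantile normalisation (-0.94), without Pers1 replicate 1 (-0.98), without Pers2 replicate 1 (-0.95) or without Teff replicate 3 (-0.90). Of 25 apoptosis genes 2 were higher (8%), with a median of 0.20. The larger increase was in Bcl2l1, which encodes the survival protein Bcl-xL (11.19 to 11.60 against 10.13, 10.08 and 10.14, 1.30), and Bcl2 differed by -0.11.

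The remaining genes among the 15 highest had no list in common. Neb (chr2:52136647-52378474), the giant ruler protein nebulin of muscle thin filaments, ran from 12.22 to 13.64 with a median of 13.00 against 7.25, 7.79 and 7.70 in Teff (log2 fold change 5.39, standard error 0.10, adjusted p = 7.8e-20). Lamc1 (chr1:153218922-153332786), a laminin chain of basement membranes, ran from 12.32 to 12.53 against 7.84, 8.22 and 8.02 (4.37, standard error 0.08, adjusted p = 5.8e-20). Cish, an inhibitor of cytokine receptors that is induced by STAT5, ran from 11.82 to 12.75 against 9.25, 8.80 and 9.01 (3.28). Map6, which stabilises microtubules, ran from 9.19 to 9.78 against 5.86, 6.35 and 6.45 (3.28).

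The 15 lowest genes ran from -6.68 to -4.31. For all 15 the 3 Teff libraries stood above the 15 other libraries of the series, as they did for 372 of the 531 lower genes. The share of all tested genes with that separation was not counted. Of the 15, Siglech, Klk1, Itgax and Flt3 stand in the marker lists of other cell types. Siglech (chr7:55768178-55778925), a lectin of plasmacytoid dendritic cells, was at 10.78, 10.93 and 10.16 in Teff and from 3.53 to 4.54 in persistent libraries (log2 fold change -6.68, standard error 0.19, adjusted p = 4.9e-17).

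Several of the others are textbook genes of myeloid or dendritic cells, which were not in the marker lists: the pore-forming protein gene Mpeg1 (5.49 to 6.51 against 11.83, 11.83 and 11.27, -5.71), the adaptor gene Tyrobp (4.46 to 5.12 against 9.68, 9.74 and 9.21, -4.90), the CD47 receptor gene Sirpa (-4.76), Pld4 (-4.42) and the cytokine receptor chains Csf2rb2 (-5.48) and Csf2rb (-4.49). Itgax, Klk1 and Flt3 were lower by 4.96, 4.96 and 4.58 on the log2 scale. Of the 15, Klk1 had the widest spread in Teff, at 8.91, 8.72 and 7.52. Csf2rb and Csf2rb2, Klk1 and its kallikrein relatives, and H2-Q2 (-4.36) and the other class I genes are near copies within gene families, so the split of reads between them is uncertain. The part of other cells in these values was not tested.

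The 15 also held Il21, Adam11 (3.91 to 5.27 against 10.51, 10.78 and 10.22, -6.09) and the neurotrophin receptor gene Ntrk3 (5.26 to 6.33 against 10.16, 10.06 and 9.96, -4.31). Ntrk3 differed from the others in its naive level, which was near that of Teff (Tnaive mean 9.45). For 12 of the 15 the Tnaive mean lay within 1 of the persistent mean. Over all 531 lower genes, 234 had the 3 Tnaive libraries above all persistent libraries, a count that was not made over all tested genes.

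Each persistent population was also set against the same Teff libraries by itself. In Pers1 506 genes were higher (3.84%) and 539 lower (4.09%), and in Pers2 658 were higher (4.99%) and 539 lower (4.09%). The difference between both populations, tested in the same model, was called for 25 genes (0.19%), of which 19 were higher in Pers2. That count rested on the fold rule, since by adjusted p alone 794 were higher and 601 lower in Pers2, and with the difference tested by limma against a fold change of 1 there were 0 and 0, with 9 genes at an unadjusted p under 0.05. Of the 565 genes higher than in Teff, 13 were called higher in Pers2 than in Pers1 and 1 the other way, and of the 531 lower genes 2 were called higher in Pers1.

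Penk differed between both populations by 1.67 with the higher values in Pers2 (adjusted p = 6.9e-08), as did Neb (1.16, adjusted p = 2.9e-06) and Il1r2 (1.07, adjusted p = 1.4e-06). Klrg1 and Itgae were each higher by 0.94 in Pers2, just under the fold threshold. Pdlim4 was lower in Pers2 by 1.40 on the log2 scale (adjusted p = 2.9e-06). In contrast Prdm1 (0.17, adjusted p = 0.206), Ccr2 (0.08, adjusted p = 0.79), Ccr3 (0.11, adjusted p = 0.754) and Lamc1 (0.14, adjusted p = 0.413) showed no called difference between both populations.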

How the data were processed

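RNA-seq libraries of 6 T-cell populations with 3 replicates each were analysed from 1 table. The authors prepared stranded mRNA libraries, aligned reads to mm10, with the Timer gene added or not, and deposited log2 values of normalised counts. The submitters' processing notes name CASAVA 1.8.2, FastQC 0.11.2, TopHat2 2.0.9 and DESeq2. The exact transform, the counter, its strand setting and the gene annotation are not given in the sources used here. The values run from -0.0208 to 18.89, 173 are below 0 and none is whole, so no count test was used. In 22 table entries the symbol is a date, and these are not named. Libraries were grouped by the labels, and no 2 replicates held identical values.

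Values were used as deposited, without a pseudocount. Genes with a mean of at least 3 over 18 libraries were fitted with limma 3.58.1 in R 4.3.3 (6 populations, 12 residual degrees of freedom, variances moderated along a trend, Benjamini-Hochberg adjustment), after the code was tested on simulated data. The study's thresholds were kept (adjusted p below 0.05, log2 fold change beyond 1 either way). All adjusted p-values come from limma. Lists were described by counts and medians. Linear sums of marker lists are sums of 2 to the power of the log2 values. The named genes are the 15 highest and 15 lowest fold changes among called protein-coding genes without overlap between groups, Foxp3, and in each list up to 4 called members each way, with some members without a call. Some genes that fall under this rule are not reported here. The comparison, the lists and the rule were chosen with earlier results of these data known. Coordinates are from GENCODE vM21 on GRCm38, and promoters from RefSeq on GRCm38.p6. Filters, scalings, thresholds, the samples in the fit, a block for the replicate and each library left out were varied.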

Additional observations from a re-analysis of the deposited data

Results flagged for a closer look

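In 5 of the named genes the effect against Teff was called different between Pers2 and Pers1. The call needed an adjusted p under 0.05 in limma's test of the difference and an absolute log2 difference over 1. By adjusted p alone more named genes differed, among them 11 of the 15 highest, all with the higher values in Pers2. The effect was larger in Pers2 for Penk by 1.67, for Ttn by 1.36, for Neb by 1.16 and for Il1r2 by 1.07 on the log2 scale, and Pdlim4 had a difference of -1.40. Penk was at 8.81 to 8.97 in Pers1 and 10.47 to 10.69 in Pers2, against 6.36, 6.94 and 6.77 in Teff, so both populations were above Teff and did not overlap each other. With the difference tested against a fold change of 1, limma called 0 genes (9 at an unadjusted p under 0.05), so these calls rest on the fold rule. No population had the 4 libraries needed for a test of single outlying libraries.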

How the results depend on the processing

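Read depth is unknown, no value could be given a counting error, and each comparison with Teff rests on 3 Teff libraries. The comparison gave 565 higher and 531 lower genes. Leaving out 1 library gave 561 to 592 and 515 to 546, in Pers1 alone 496 to 524 and 523 to 547, in Pers2 alone 653 to 673 and 526 to 559, and for Pers2 against Pers1 18 to 25 higher and 6 to 9 lower. Without the fold threshold the counts were 3931 and 3808, in Pers1 3641 and 3502, in Pers2 3654 and 3457, and for Pers2 against Pers1 794 and 601. With limma's test of the fold change against 1, 354 were higher and 363 lower, in Pers1 268 and 315, in Pers2 397 higher, and for Pers2 against Pers1 0 and 0, with 9 genes at an unadjusted p under 0.05. A minimum mean of 5 gave 554 and 417, a shift of libraries to the same median 517 and 578, and quantile normalisation 584 and 522.

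Same-numbered libraries deviated together from their population means in 6 of 9 pairs by a correlation over 0.1 (0.0453 to 0.268), against -0.257 to 0.0062 in 18 other pairs, so each library correlated best with its own number, which is a hint from the data and not from the labels. With the replicate block the counts were 565 and 531, in Pers1 506 and 539, in Pers2 658 and 539, and for Pers2 against Pers1 19 and 6, the same as without it. Every population holds each replicate number, so the block cannot change a fold change, and the counts rest largely on the fold threshold. Equal counts therefore do not show whether same-numbered libraries are related.

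Over the 150 named genes and all settings, 2639 of 2691 fold changes kept direction and call, 28 lost and 19 gained a call, and 5 turned, all for Tbx21, at -0.03 with libraries shifted to the same median, -0.01 with quantile normalisation, -0.01 without Pers1 replicate 2, -0.01 without Pers2 replicate 2 and -0.02 without Teff replicate 2 (range -0.02 to 0.09 with 1 library left out). The cause was not tested.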

Other observations

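Genes outside the lists were looked at after their values were seen. Like Neb, Ttn, which encodes the giant sarcomere protein titin, was higher in persistent expressors (10.06 to 11.74 against 7.80, 8.31 and 8.24 in Teff, log2 fold change 2.71). PAt and Arrested cells had Ttn means of 11.12 and 10.60, and Tnaive cells of 6.74. Smtn, which encodes the smooth muscle protein smoothelin, was lower by 4.04 on the log2 scale (8.72 to 9.29 against 13.22, 12.95 and 13.12), and no other population had a mean above 8.34. Tbc1d4, a regulator of glucose transporter traffic, was at 14.30, 14.41 and 14.39 in Teff and from 11.14 to 11.80 in persistent libraries (-2.84). Coro2a, an actin-binding coronin, was higher by 2.92 (12.05 to 12.99 against 9.50, 9.67 and 9.65) and the kinase gene Src by 2.77 (9.27 to 9.97 against 6.95, 7.04 and 6.66).

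Of the genes of antigen presentation by MHC class II, 5 were looked at, again after their values were seen. H2-Aa was at 12.98, 13.38 and 13.08 in Teff and from 9.02 to 9.84 in persistent libraries (log2 fold change -3.73), H2-Ab1 differed by -3.63, H2-Eb1 by -3.67, the invariant chain gene Cd74 by -1.93 and their activator Ciita by -2.78. PAt cells had means of 10.85 for H2-Aa, 10.56 for H2-Ab1 and 10.41 for H2-Eb1, between both groups. B cells and dendritic cells also express these genes, and the markers of both cell types were higher in Teff (B cell sum 3.99e+03 to 6.47e+03 against 1.9e+03 to 2.34e+03, conventional dendritic cell sum 1.31e+03 to 1.58e+03 against 134 to 171). Their part in the result was not tested.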
